A study of Mus musculus with 8 samples.

Results

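The genes of the major histocompatibility complex (MHC) and of antigen presentation were taken as every gene whose symbol on the array platform starts with H2-, the mouse MHC prefix, together with 11 genes added by name (B2m, Cd74, Ciita, Tap1, Tap2, Tapbp, Psmb8, Psmb9, Psmb10, Nlrc5 and Cd1d1). These are 46 of the 16593 genes named on the array, measured by 59 of its 25697 probes, and 35 of the 46 carry the prefix. Lower incisors of C57BL/6 mice at 10 wk of age were microdissected at the maturation (Mat) stage, and RNA of the dental tissue was measured on Illumina MouseRef-8 bead arrays, 4 for each group. KO mice were homozygous for floxed MED1, a coactivator subunit of the Mediator complex, and carried a Cre transgene driven by the keratin 14 (K14) promoter. CON mice were littermates with the same MED1 fl/fl alleles and no Cre. The promoter limits the deletion to K14-expressing epithelia, so leukocytes, vessels and other mesenchyme in the KO tissue keep unrecombined Med1 alleles by this design. The KO tissue taken was the part of the incisor that grows hairs and lacks enamel, and the equivalent place was taken from CON incisors, which form enamel. Tissue of 3 mice was combined, and the labels do not say that each array had a pool of its own. The study's methods speak of separate samples of 3 mice each where they describe how the dissection was tested, not for these arrays. The p-values therefore rest on the spread among arrays, which may be technical.

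MHC class I molecules consist of a heavy chain paired with beta-2-microglobulin and sit on nearly all nucleated cells, where they show peptides cut from cytosolic proteins by the proteasome to CD8 T cells. MHC class II molecules are pairs of alpha and beta chains found mainly on dendritic cells, macrophages and B cells. The invariant chain fills their peptide groove until they are loaded with peptides of endosomal origin for CD4 T cells. Epithelial cells can also make class II molecules when exposed to interferon gamma. In rat incisors, cells bearing class II molecules are known from the pulp and from the enamel organ.

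Values are log2 intensities after background correction and quantile normalization, differences are KO minus CON on that scale with their SE, and p-values come from limma with adjustment over all 12838 tested probes. A probe was tested when 4 or more of the 8 arrays detected it, that is, gave it a detection p-value under 0.01. Of the 59 probes, 32 were tested, 4 were detected on fewer arrays and 23 were detected on no array. Among the 32 tested probes 22 passed the 5% threshold as higher in KO, 2 passed as lower in KO and 8 did not pass. That is 68.8% higher in KO, where 59.7% of all tested probes passed in either direction, 22.4% as higher and 37.3% as lower. When the arrays were scaled by cyclic loess instead, 28 of the 32 were higher and 1 was lower, against 29.1% higher and 22.2% lower among all probes. The median difference was 0.62 over the tested member probes and -0.14 over all tested probes. All 4 KO arrays lay above all 4 CON arrays for 22 of the 32 probes (21.2% of all tested probes) and below them for 1 (33.4%). Per gene, with the brightest probe standing for each, 24 of 46 genes were tested, of which 16 were higher, 2 lower and 6 not past the threshold. The filter counts arrays of either group, so H2-M2 and Ciita, each detected on 4 KO arrays and 1 CON array, would have passed through KO arrays alone. With detection required on all 8 arrays, 28 member probes were tested, 21 of them higher and 2 lower. Of all 10852 probes tested under that filter 2123 were higher and 4443 lower.

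**Figure D1:**
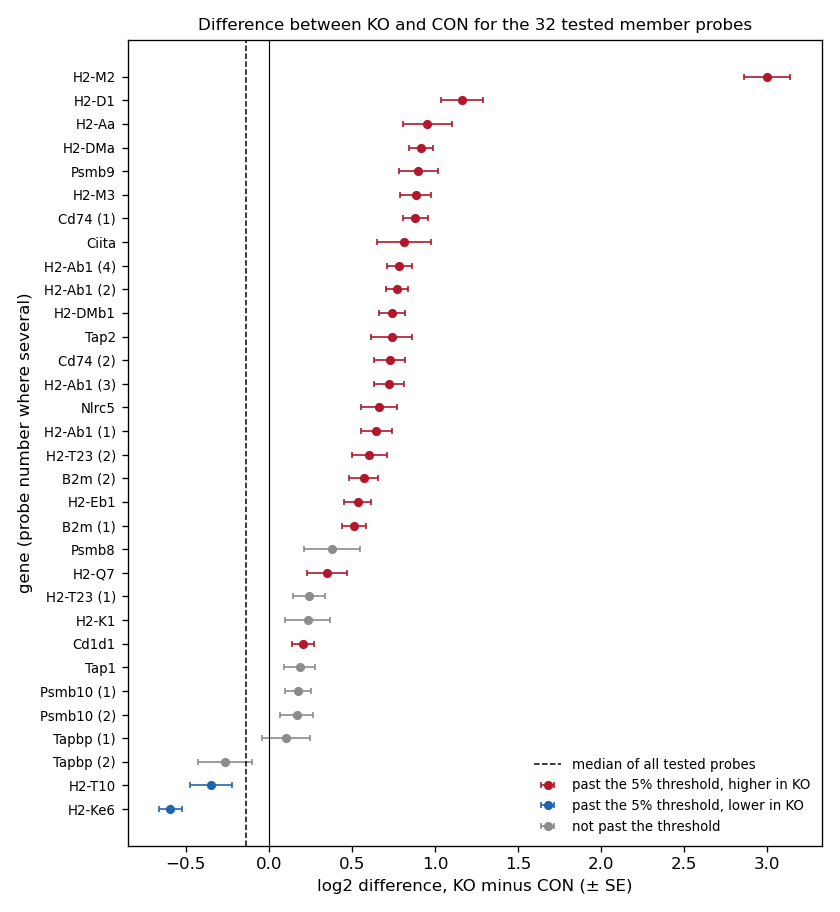
Difference between KO and CON on the log2 scale (x axis, ± SE, n = 4 arrays each) for each of the 32 tested member probes (y axis), with the median of all tested probes, -0.14, as a dashed line. H2-M2 stands at 3.00, the 10 class II probes lie between 0.53 and 0.95, and H2-Ke6 and H2-T10 lie below 0.

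The arrays within a group correlated at 0.992 to 0.993 and those of different groups at 0.911 to 0.923, and between 12565 and 13134 probes were detected on a KO array and between 11554 and 12513 on a CON array. The Med1 probe with detection on all arrays fell by 0.76 ± 0.13 in KO (1.69-fold, adjusted p = 0.000746). Its position relative to the deleted exons is not known, so it is no check of the deletion itself. The tissue carried enamel organ transcripts in both groups, with Ambn, an enamel matrix protein, at 14.97 ± 0.10 in KO and 14.66 ± 0.07 in CON (SD, n = 4 each).

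The promoters of 5 members are shown because their genes carry the results below: a class II alpha chain, a class II beta chain, a class I heavy chain, the class I light chain and the member with the widest difference. Class II genes and many class I genes are switched on through a shared promoter module in which an X box, a sequence like a cyclic AMP response element (CRE) and a Y box are bound by RFX, CREB and NF-Y, and CIITA or NLRC5 dock on the assembled complex. The Y box letters CCAAT, an X box core ACNGATGA, the CRE TGACGTCA and an interferon-stimulated response element (ISRE) GAAA-NN-GAAA were searched on both strands. Sequences are RefSeq windows of GRCm38.p6 from 250 bases before to 50 bases after the gene start, 5′ to 3′ on the gene's strand, and capitals mark the motif letters. The genes and the promoters were chosen after their values had been seen.
H2-Aa: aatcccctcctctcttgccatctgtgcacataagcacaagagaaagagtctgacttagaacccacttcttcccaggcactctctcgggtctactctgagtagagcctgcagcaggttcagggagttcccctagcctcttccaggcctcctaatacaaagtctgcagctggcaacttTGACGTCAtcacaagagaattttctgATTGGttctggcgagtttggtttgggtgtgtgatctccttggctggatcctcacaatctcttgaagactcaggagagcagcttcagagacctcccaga
H2-Eb1: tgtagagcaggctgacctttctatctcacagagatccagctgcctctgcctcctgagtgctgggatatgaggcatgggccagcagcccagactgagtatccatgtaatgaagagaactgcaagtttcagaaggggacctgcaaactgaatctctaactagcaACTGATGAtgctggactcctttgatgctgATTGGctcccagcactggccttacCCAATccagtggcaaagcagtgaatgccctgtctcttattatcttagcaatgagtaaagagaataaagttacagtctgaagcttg
H2-D1: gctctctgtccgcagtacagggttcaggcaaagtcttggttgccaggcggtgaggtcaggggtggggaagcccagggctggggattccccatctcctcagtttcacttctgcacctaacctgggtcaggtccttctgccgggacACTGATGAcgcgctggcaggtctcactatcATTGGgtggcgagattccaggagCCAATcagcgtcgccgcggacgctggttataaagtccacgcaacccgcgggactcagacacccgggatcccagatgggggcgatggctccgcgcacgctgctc
B2m: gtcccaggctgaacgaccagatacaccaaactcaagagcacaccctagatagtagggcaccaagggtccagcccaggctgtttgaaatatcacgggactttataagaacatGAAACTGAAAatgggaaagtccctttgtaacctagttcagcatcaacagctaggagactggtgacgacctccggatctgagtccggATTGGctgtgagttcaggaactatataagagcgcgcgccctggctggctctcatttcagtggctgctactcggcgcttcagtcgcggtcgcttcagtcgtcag
H2-M2: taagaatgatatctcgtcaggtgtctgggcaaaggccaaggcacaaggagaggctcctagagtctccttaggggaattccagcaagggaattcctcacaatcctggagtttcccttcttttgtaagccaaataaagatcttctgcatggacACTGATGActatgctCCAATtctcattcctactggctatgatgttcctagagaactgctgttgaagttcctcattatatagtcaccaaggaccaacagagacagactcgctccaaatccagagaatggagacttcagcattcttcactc

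H2-Aa lies on chr17:34287774-34288073 (minus strand), H2-Eb1 on chr17:34305617-34305916 (plus), H2-D1 on chr17:35262844-35263143 (plus), B2m on chr2:122147437-122147736 (plus) and H2-M2 on chr17:37483505-37483804 (minus). Each of the 5 windows held at least 1 Y box, and H2-Eb1 and H2-D1 held a Y box on each strand. Counted from the gene start, the X box core began at base -88 in H2-Eb1, at -106 in H2-D1 and at -99 in H2-M2. H2-Aa held the CRE, from base -74, and B2m held the ISRE, from base -139. No marked motifs overlapped each other. Of the members, 33 genes had 36 windows in the RefSeq table, and 31 of these windows held CCAAT, against 37.4% of all 32851 windows. The X box core was in 9 of 36 (2.55% of all windows), the CRE in 1 (1.79%) and the ISRE in 2 (3.44%), B2m and H2-T23. A match is a description of letters and not of binding.

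The class II chain genes and the genes that load them were higher in KO without exception among the tested probes. All 10 probes, of 6 genes, passed the threshold as higher, each with every KO array above every CON array, by 0.53 to 0.95 on the log2 scale (a median of 0.76). Over all tested probes 22.4% passed as higher and 21.2% had every KO array above every CON array. The alpha chain gene H2-Aa had 9.71, 9.90, 9.19 and 9.93 on the KO arrays, against 8.66, 8.82, 8.69 and 8.74 on the CON arrays. KO array 3 was the lowest of its group and still above the highest CON array. The difference was 0.95 ± 0.15 (1.94-fold, adjusted p = 0.00037).

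H2-Ab1, the beta chain that pairs with H2-Aa, was read by 4 probes. The brightest had 11.56, 11.49, 11.79 and 11.72 in KO, against 10.84, 11.08, 11.10 and 10.98 in CON. The groups did not overlap at this probe or at the other 3, whose KO arrays lay 1.65- to 1.72-fold higher on average, and the brightest rose 1.56-fold (difference 0.65 ± 0.09, adjusted p = 0.000214). In order of brightness the 4 probes gave differences of 0.65, 0.77, 0.72 and 0.79. H2-Eb1, the beta chain of the other class II isotype, had 10.29, 10.03, 10.09 and 10.16 in KO and 9.60, 9.50, 9.63 and 9.70 in CON, a difference of 0.53 ± 0.08 (1.45-fold, adjusted p = 0.000291). Its alpha partner H2-Ea, annotated in RefSeq as a transcribed pseudogene in C57BL/6, was detected on 2 KO arrays and 0 CON arrays and was not tested, and H2-Eb2 was detected on no array.

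Cd74 encodes the invariant chain, which fills the peptide groove and guides class II molecules to endosomes. Its brighter probe had 11.57, 11.71, 11.80 and 11.82 in KO, against 10.84, 10.80, 10.89 and 10.84 in CON. The CON arrays lay within a narrow band well under all KO arrays, with a difference of 0.88 ± 0.08 (1.84-fold, adjusted p = 4.83e-06), and a second probe gave 0.73 ± 0.10. H2-DMa and H2-DMb1 form H2-DM, which exchanges the remnant of the invariant chain for peptide. H2-DMa had 9.24, 9.12, 9.15 and 9.10 in KO and 8.20, 8.12, 8.31 and 8.31 in CON, a difference of 0.92 ± 0.07 (1.89-fold, adjusted p = 3.06e-06). H2-DMb1 had 9.35, 9.29, 9.44 and 9.29 in KO and 8.50, 8.71, 8.52 and 8.68 in CON, a difference of 0.74 ± 0.08 (1.67-fold, adjusted p = 2.19e-05). Both H2-DM genes thus showed separate groups. H2-DMb2 and H2-Ob were detected on no array, and H2-Oa, which with H2-Ob forms the H2-DO inhibitor of H2-DM, on 1 array of each group.

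Ciita, the master coactivator of class II genes, had 6.24, 6.26, 6.06 and 5.77 in KO, against 4.80, 5.49, 5.43 and 5.36 in CON. The groups were apart, but only 1 CON array detected the probe. The difference was 0.81 ± 0.16 (1.76-fold, adjusted p = 0.00182), and without background correction it was 0.27 with adjusted p = 0.00198. Nlrc5, the corresponding coactivator of class I genes, had 7.29, 7.61, 7.42 and 7.34 in KO and 6.67, 6.73, 7.01 and 6.59 in CON. It was detected on all 8 arrays, with a difference of 0.67 ± 0.11 (1.59-fold, adjusted p = 0.000486), or 0.37 without background correction. Of the 4 tested genes for the DNA-binding partners in limma 0 were higher, also at an unadjusted p under 0.05, 1 was lower and 3 did not pass, with a median of -0.06. Among all tested probes 22.4% passed as higher and 37.3% as lower. Rfxap, a subunit of the RFX complex, fell by 0.28 (adjusted p = 0.00714), whereas Nfyc, Nfyb and Creb1 differed by -0.10, -0.01 and 0.04 (adjusted p = 0.223, 0.858 and 0.769). Rfx5, Rfxank and Nfya were detected on no array.

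**Figure D2:**
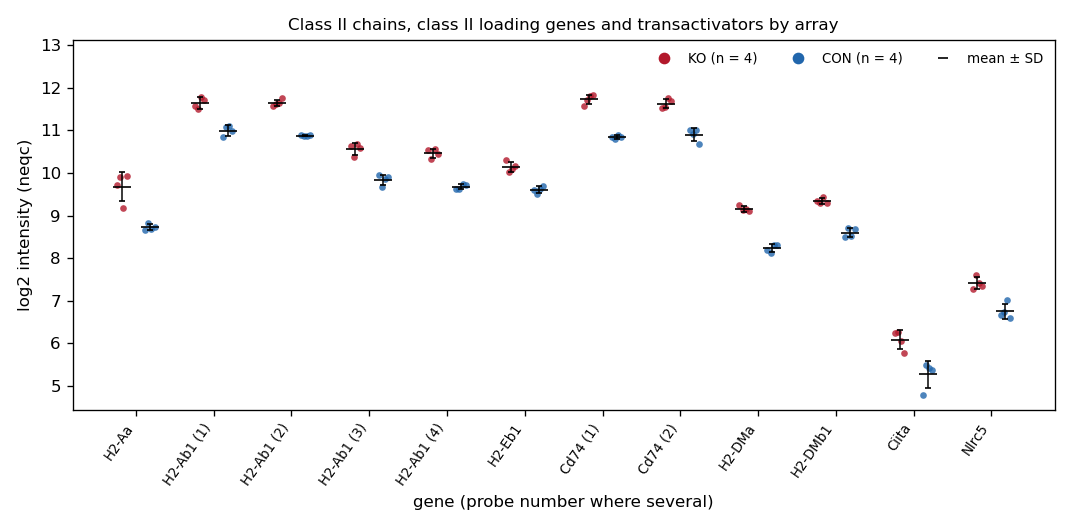
Log2 intensity (y axis) on each array for the tested class II chain, class II loading and transactivator probes (x axis), KO left and CON right of each pair, with the mean ± SD of 4 arrays. Every KO array lies above every CON array of the same probe (true of 21.2% of all tested probes), with the narrowest gaps at Nlrc5 and Ciita.

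Among class I heavy chains the classical pair H2-D1 and H2-K1, which present peptides to CD8 T cells, gave unequal differences. H2-D1 had 7.72, 7.99, 8.38 and 8.04 in KO, against 6.78, 6.80, 6.98 and 6.92 in CON. The groups were apart by a wide gap, with a difference of 1.16 ± 0.13 (2.24-fold, adjusted p = 2.96e-05), or 0.73 without background correction. H2-K1 had 6.12, 5.47, 5.63 and 5.53 in KO and 5.33, 5.53, 5.51 and 5.44 in CON. Its groups overlapped, KO array 1 was the only one above 6, and the difference of 0.23 ± 0.14 did not pass (adjusted p = 0.162). It was 0.08 without background correction and 0.09 without KO array 1, while a second H2-K1 probe was detected on no array. The tested H2-K1 probe lay near background in both groups, with mean deposited intensities of 160.4 in KO and 144.7 in CON. It was detected on 4 KO arrays and 3 CON arrays, so the size of its difference is uncertain. The difference for H2-D1 exceeded that for H2-K1 by 0.93 ± 0.26 (exact permutation test over the 8 arrays, two-sided, p = 0.0286, the smallest this design allows, adjusted p = 0.0343 over the 6 pairs compared), and by 0.65 without background correction. With H2-K1 near background, the size of that gap is uncertain too. All 6 pairs were chosen after their values had been seen, so the p-values here and for the pairs below describe the gaps and are no support. Class I heavy chain genes are close in sequence and the reference table lists H2-K1 among the synonyms of H2-D1, so the transcript behind either probe is uncertain. B2m, the light chain common to all class I molecules, had 13.77, 13.71, 13.80 and 13.81 in KO and 13.19, 13.16, 13.33 and 13.36 in CON at its brightest probe. Its groups were apart, with differences of 0.51 ± 0.07 (1.43-fold, adjusted p = 0.000194) and, at a second probe, 0.57 ± 0.09 (1.48-fold), and another probe was detected on no array.

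The widest difference of any member belonged to H2-M2, a non-classical class I gene of the M region. It had 8.17, 8.39, 8.61 and 8.26 on the KO arrays, against 5.47, 4.98, 5.42 and 5.57 on the CON arrays. As deposited, before any correction, its intensities were 379.0, 585.6, 414.2 and 396.2 in KO and 138.3, 130.0, 145.7 and 157.2 in CON, so the separation stood in the uncorrected values also. The difference was 3.00 ± 0.14 (8.0-fold, adjusted p = 5.08e-08) against a CON level near background, since 1 CON array detected the probe. The probe would have been tested on its KO arrays alone, and without background correction the difference was 1.57, so its size is uncertain. H2-M3, which presents peptides that begin with formylated methionine, had 7.99, 8.09, 7.75 and 7.84 in KO and 7.09, 7.13, 6.90 and 7.003 in CON, a difference of 0.88 ± 0.09 (1.84-fold, adjusted p = 2.31e-05), or 0.56 without background correction.

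The remaining non-classical genes gave smaller differences or could not be measured. H2-T23, the Qa-1 molecule that shows leader peptides of other class I chains to CD94-bearing receptors of NK and T cells, was read by 2 probes. The dimmer had 8.57, 8.65, 8.65 and 8.95 in KO and 8.01, 8.08, 8.01 and 8.30 in CON, with the groups apart and a difference of 0.60 ± 0.10 (1.52-fold, adjusted p = 0.000668). The brighter gave 0.24 ± 0.10 with overlapping groups and did not pass (adjusted p = 0.0533), though it did under several other settings, among them no background correction (0.21, adjusted p = 0.0236). The probes differed from each other by 0.36 ± 0.13 (exact permutation test, two-sided, p = 0.0286, adjusted p = 0.0343). H2-Q7, the Qa-2 molecule, had 8.03, 8.47, 8.19 and 8.32 in KO and 7.71, 7.77, 8.02 and 8.11 in CON. Those groups overlapped, and its difference of 0.35 ± 0.12 (adjusted p = 0.0299) was lost with median scaling (0.28, adjusted p = 0.154). H2-T10, annotated in RefSeq as a transcribed pseudogene, had 7.63, 7.35, 7.27 and 7.10 in KO and 7.68, 7.91, 7.71 and 7.44 in CON. It passed as lower at -0.35 ± 0.13 (adjusted p = 0.0391) with overlapping groups, and with cyclic loess it was -0.12 (adjusted p = 0.439). Cd1d1, which presents lipids to NKT cells, had 8.07, 8.01, 8.05 and 8.01 in KO and 7.82, 7.75, 7.91 and 7.83 in CON. The groups were apart but the gain was small, 0.20 ± 0.07 (1.15-fold, adjusted p = 0.0212), and it was lost with median scaling (0.14, adjusted p = 0.225). Leaving out 1 array also removed these 3 calls, with the highest adjusted p at 0.0813 for H2-Q7 (without CON array 1), 0.105 for H2-T10 and 0.0608 for Cd1d1 (both without CON array 2).

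H2-Q8 was detected on 3 KO arrays and 0 CON arrays, at least 1.07-fold higher in KO by the bound that background sets, and was not tested. H2-M11 was detected on 0 KO arrays and 1 CON array. The 8 probes of the 6 H2-M10 genes, which in the mouse are known from the vomeronasal organ, were detected on no array, and the same held for H2-M1, H2-M9, H2-Q1, H2-Q2, H2-Q5, H2-Q10, H2-T3, H2-T24 and H2-Bl. For these probes the arrays give no level in either group, which does not show that the transcripts are absent.

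**Figure D3:**
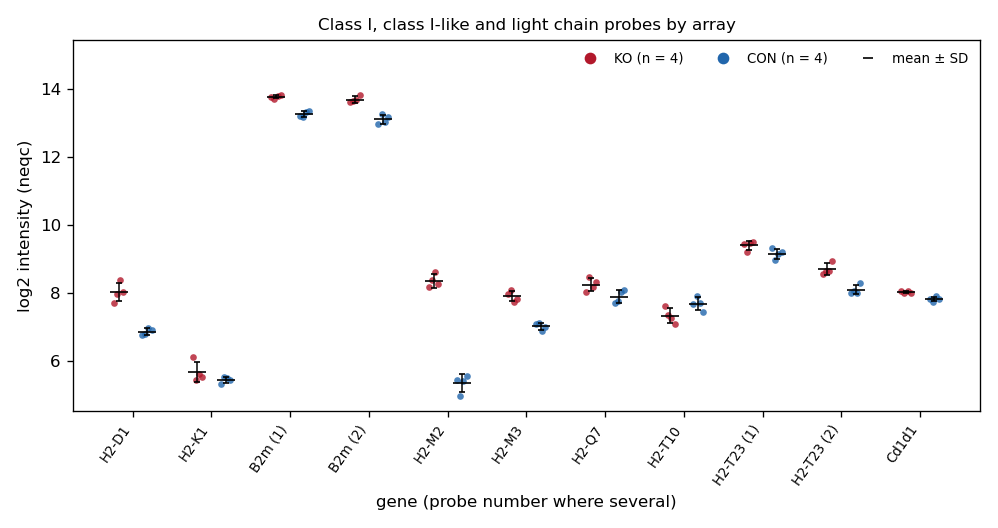
Log2 intensity (y axis) on each array for the tested class I heavy chain, B2m, non-classical class I and Cd1d1 probes (x axis), KO left and CON right of each pair, with the mean ± SD of 4 arrays. H2-M2 has the widest gap and H2-K1, H2-Q7, H2-T10 and the brighter H2-T23 probe overlap between groups.

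The genes that supply peptide to class I molecules split by gene with quantile normalization, and more of them passed with cyclic loess, as given below. Tap1 and Tap2 are the subunits of the transporter that carries peptides into the endoplasmic reticulum. Tap2 had 8.58, 8.26, 8.58 and 8.75 in KO and 7.94, 7.79, 7.56 and 7.92 in CON, a difference of 0.74 ± 0.12 (1.67-fold, adjusted p = 0.000506). Tap1 had 6.68, 6.42, 6.52 and 6.60 in KO and 6.41, 6.14, 6.45 and 6.49 in CON. The Tap1 groups overlapped and its difference of 0.18 ± 0.10 did not pass (adjusted p = 0.124), and Tap2 exceeded it by 0.55 ± 0.14 (exact permutation test, two-sided, p = 0.0286, adjusted p = 0.0343). Tapbp, the tapasin that holds class I molecules at the transporter, gave 0.10 ± 0.15 and -0.27 ± 0.16 at its 2 probes, neither past the threshold (adjusted p = 0.566 and 0.181). The gap between those probes was within the spread of the arrays (0.37 ± 0.26, or 0.22 without background correction and 0.24 without KO array 1, exact permutation test, two-sided, p = 0.257, adjusted p = 0.257).

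Psmb8, Psmb9 and Psmb10 replace the proteasome's standard catalytic subunits to make the immunoproteasome, which cuts peptides suited to class I molecules. Psmb9 had 7.62, 7.65, 7.91 and 8.004 in KO and 6.68, 6.90, 6.91 and 7.09 in CON. Its groups were apart, with a difference of 0.90 ± 0.12 (1.87-fold, adjusted p = 0.000101), or 0.55 without background correction. Psmb10 differed by 0.18 ± 0.08 and 0.17 ± 0.10 at its 2 probes (adjusted p = 0.0741 and 0.173) and Psmb8 by 0.38 ± 0.17 (adjusted p = 0.0749). Psmb8 was detected on 3 KO arrays and 1 CON array. The difference for Psmb9 exceeded that of the brighter Psmb10 probe by 0.72 ± 0.11 (exact permutation test, two-sided, p = 0.0286, adjusted p = 0.0343), and by 0.39 without background correction. With cyclic loess Tap1, H2-K1, Psmb8, both Psmb10 probes and the brighter H2-T23 probe also passed as higher, by 0.29 to 0.50. The standard subunits Psmb5, Psmb6 and Psmb7 differed by 0.17, 0.06 and -0.10, 0 of 3 past the threshold in limma, also at an unadjusted p under 0.05 (adjusted p = 0.126, 0.585 and 0.276).

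H2-Ke6 carries the MHC prefix for its place in the region and encodes a hydroxysteroid dehydrogenase that takes no part in antigen presentation. It had 10.78, 10.61, 10.74 and 10.76 in KO and 11.26, 11.35, 11.30 and 11.36 in CON. Among the tested member probes it was the only one with every KO array below every CON array, at -0.59 ± 0.07 (1.51-fold lower, adjusted p = 4.33e-05). That pattern was common on the array, at 33.4% of all tested probes.

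**Figure D4:**
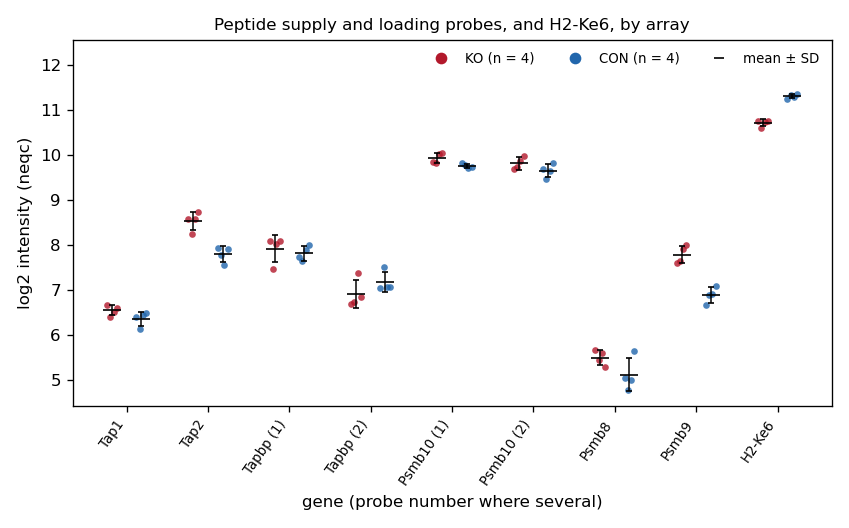
Log2 intensity (y axis) on each array for the tested transporter, tapasin and immunoproteasome probes and for H2-Ke6 (x axis), KO left and CON right of each pair, with the mean ± SD of 4 arrays. Tap2 and Psmb9 lie apart as higher in KO, H2-Ke6 lies apart as lower, and 1 array stands off at each Tapbp probe.

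Genes of the same pathway outside the members were counted from lists. For comparison, 22.4% of all tested probes passed as higher and 37.3% as lower, so a count near these shares is no result about its list. Of 10 tested genes of other antigen processing 3 were higher, 2 lower and 5 not past the threshold, with a median of 0.06. Ctss, the cathepsin that trims the invariant chain, was detected on 4 KO arrays at 7.94 ± 0.13 and on 0 CON arrays, at least 5.45-fold higher in KO. It met the filter only through its KO arrays, which fixes its direction, so its place in the count is no support. Ifi30, the endosomal thiol reductase, and Lgmn, the asparaginyl endopeptidase, rose by 0.52 and 0.20 (adjusted p = 0.00134 and 0.0342). Sppl2a, the protease that clears the last invariant chain fragment, fell by 0.54 and Tapbpl, a relative of tapasin, by 0.58 (adjusted p = 0.00118 and 0.00537). Of 3 tested class I-like genes outside the MHC, Hfe of iron handling and Fcgrt of antibody recycling were higher by 0.58 and 0.35, and Mr1 differed by 0.12 and did not pass (adjusted p = 0.637). All 4 tested co-stimulatory genes, whose products give T cells the signal that goes with antigen, were higher: Cd40 by 1.69, Cd86 by 1.64, Cd80 by 1.70 (detected on 4 KO arrays and 1 CON array, so against a CON level near background) and Cd274, an inhibitory ligand, by 2.93. Cd274 was detected on 3 CON arrays, at a CON mean of 5.74, so it too lay near background there. Pdcd1lg2 was detected on no array.

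Of 10 tested interferon regulators 5 were higher, 1 lower and 4 not past the threshold, with a median of 0.38 (22.4% of all tested probes passed as higher, 37.3% as lower). Irf1, which drives class I, Tap and Psmb genes under interferon, had 10.54, 11.01, 10.93 and 10.81 in KO and 9.66, 9.70, 9.68 and 9.98 in CON. Its groups were apart, with a difference of 1.07 (2.10-fold, adjusted p = 2.76e-05). Irf8, a regulator of myeloid cells, was detected on 4 KO arrays and 0 CON arrays, a gain of at least 1.67-fold, and like Ctss met the filter only through KO arrays. The interferon gamma receptor chain Ifngr1 rose by 0.75 (adjusted p = 7.76e-05), the kinase Jak2 by 0.38 (adjusted p = 0.00307) and Irf2 by 0.31 (adjusted p = 0.0101), whereas the second receptor chain Ifngr2 fell by 0.33 with overlapping groups (adjusted p = 0.0267). Ifng itself was detected on no array. Irf2, Ifngr2 and Lgmn were named after their values had been seen, to complete the counts.

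**Figure D5:**
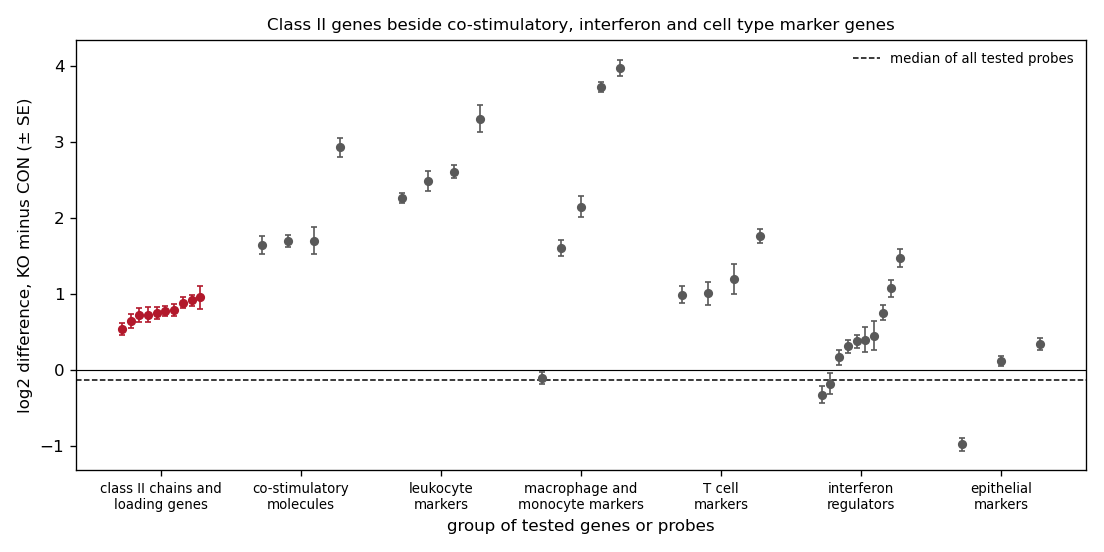
Difference between KO and CON on the log2 scale (y axis, ± SE, n = 4 arrays each) for the tested class II probes (left, 0.53 to 0.95) and for the tested genes of the co-stimulatory, leukocyte, macrophage and monocyte, T cell, interferon and epithelial lists (x axis). The 4 leukocyte markers lie between 2.26 and 3.31, and the dashed line is the median of all tested probes, -0.14. The 4 T cell genes and Irf8 were detected on 0 CON arrays, so their points do not measure the size of a difference. Other lists are not drawn, among them skeletal muscle (4 tested genes, 1.49 to 2.90) and dendritic cells (2 tested, 0 past the threshold).

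Markers of leukocytes and most of those of macrophages and monocytes moved with these results, while those of dendritic cells could hardly be measured. The counts that follow stand beside 22.4% higher and 37.3% lower among all tested probes. All 4 tested leukocyte markers were higher in KO, by 2.26 (Laptm5) to 3.31 (Cd53), and the summed linear level of the 5 on the array was 13400 to 14000 in KO and 2550 to 2780 in CON. Cd53 was detected on 3 CON arrays and lay near background in CON, at a mean of 5.50, so the size of its difference is uncertain. Ptprc, the defining leukocyte antigen, was detected on no array. Of 5 tested macrophage and monocyte markers 4 were higher and Aif1 differed by -0.11 (adjusted p = 0.287). The summed level of the 6 on the array was 21500 to 23900 in KO and 2160 to 2290 in CON, led by Lyz2 at a difference of 3.72 and Cd14 at 3.98. Of 10 dendritic cell markers 2 were tested, Batf3 at 0.33 and Mgl2 at -0.13, and 0 of them passed in limma, also at an unadjusted p under 0.05 (adjusted p = 0.25 and 0.453), with sums of 322 to 395 in KO and 277 to 331 in CON. Itgax, Zbtb46 and Xcr1 were each detected on 1 KO array and 0 CON arrays, and Ccr7 on 1 array of each group. Flt3, Clec9a, Cd209a and Clec10a were detected on no array, so the dendritic cell sums are partly background. Cd207, the marker of Langerhans cells, was detected on 3 KO arrays and 0 CON arrays. Cd79b was the 1 tested B cell marker and rose by 0.63. Cd22 was detected on 3 KO arrays and Cd79a on 2 KO arrays, both on 0 CON arrays. Ms4a1, Pax5 and Cr2 were detected on no array. The B cell sums, partly background, were 211 to 261 in KO and 155 to 177 in CON. Cd3d, Cd3e, Cd3g and Cd8b1, the 4 tested T cell markers, were each detected on 4 KO arrays and 0 CON arrays, at least 1.53-, 1.13-, 2.46- and 1.56-fold higher in KO. The filter fixed the direction of these 4 genes, and Cd4 and Cd8a were detected on no array. Their list summed to 342 to 413 in KO and 186 to 197 in CON. No gene of that list was detected on a CON array, so the CON sum is background and the sums do not measure a fold.

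Of the other lists, skeletal muscle was the only one with every tested gene higher (22.4% of all tested probes passed as higher, 37.3% as lower). Of 2 tested NK cell markers Klrd1, which encodes CD94 and was detected on KO arrays alone, was at least 1.84-fold higher in KO. Prf1 fell by 1.69, and Ncr1, Klrb1c, Klrk1 and Gzma were detected on no array. The NK cell sums were 540 to 664 in KO and 1320 to 1910 in CON. They come mostly from Prf1 (log2 means of 8.74 in KO and 10.44 in CON) and do not describe the list. Endothelial markers were higher for Pecam1 (0.76) and Tek (0.38) and not past for Cdh5 (0.17, adjusted p = 0.168), with sums of 1360 to 1680 in KO and 963 to 1160 in CON. The epithelial sums overlapped, at 45800 to 48200 in KO and 47300 to 50600 in CON, with Krt14 at 0.11 (adjusted p = 0.135), Krt5 at -0.98 and Cdh1 at 0.34. These sums come mostly from Krt14 (log2 means of 15.26 in KO and 15.15 in CON). They therefore do not describe Krt5, with groups apart as lower in KO, or Cdh1, with groups apart as higher. Of 5 tested enamel organ markers 3 were higher, with sums of 46000 to 51100 in KO and 38100 to 40700 in CON, and all 4 tested skeletal muscle markers were higher, with sums of 17900 to 19800 in KO and 5000 to 5800 in CON. In RNA of whole tissue, more cells of a type and more RNA per cell cannot be told apart. The part of these cell types in the differences of the MHC genes was not tested.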

How the data were processed

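Total RNA was labelled and hybridised to Illumina MouseRef-8 arrays by the authors, and the deposited non-normalized table gives the mean bead intensity of 25697 probes per array on a linear scale, summarised in GenomeStudio per the labels (version not given in the sources used here). Beside each intensity the deposited table holds a detection p-value against negative control beads. A further deposited table of intensity values that the authors normalized in GenomeStudio served as an alternative. All columns of per-sample values were mapped.

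The intensities were processed in R 4.3.3 by the neqc function of limma 3.58.1 (background corrected with negative controls inferred from the detection p-values, offset 16, quantile normalization, log2). KO minus CON was fitted with lmFit and eBayes, two-sided and without covariates, over the 12838 probes detected (p-value under 0.01) on at least 4 of 8 arrays, with Benjamini-Hochberg adjustment and a threshold of 5%. Folds are the differences on the linear scale. Where no array of a group detected a probe, the fold is a bound: the mean of the brighter group is set against that of the dimmer one, where each array's value is raised to the lowest detected value on that array if it lies under it. For 6 pairs of probes, chosen after their values were seen, the difference of their differences was tested by exact permutation over the arrays, and the p-values were adjusted over the 6. The pair of H2-M2 with H2-M3 is not reported, since H2-M2 was detected on 1 CON array. A list's summed level adds the linear values of its genes on the array. All 46 member genes were found in the RefSeq gene table. In simulated data for KO against CON with 12838 probes, 83.6% of probes changed by 0.5, and 100% of those changed by 1 or by 2 on the log2 scale, were called. The changes were planted in 200 brighter probes detected on every CON array, far fewer than passed in the data, so the rates do not cover dim members. In that run 10 unchanged probes were called, and 0 in a run without planted changes. The members and lists were chosen with earlier results of these data known. Every tested member is named with its values. From each pathway list up to 4 genes were named by the size of the moderated statistic. Arrays carry no counts, so their number, 4 per group, limits the precision. Same-numbered KO and CON arrays did not deviate together (correlations -0.01, 0.00, 0.00 and 0.02), so numbers were not used as pairs. The alternatives were other starting values, background corrections, scalings, filters, variance models, thresholds, the replicate block and leaving out each array. Python 3.11, pandas 2.3.3, numpy 2.4.6 and matplotlib 3.10.9 were used.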

Additional observations from a re-analysis of the deposited data

Results flagged for a closer look

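Of 64 groups of 4 arrays examined, 1 per tested member probe and condition, 2 held an array far from the other 3, and chance alone flags about 1 group in 20. Both belong to Tapbp. At its brighter probe KO array 2 had a log2 intensity of 7.482, where the other KO arrays lay between 8.037 and 8.099. At its dimmer probe CON array 2 had 7.516, where the other CON arrays lay between 7.063 and 7.084. Only 1 contrast exists, so differences of an effect between conditions could not be examined.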

How the results depend on the processing

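Of the 24 called member probes 18 kept direction and call under every alternative that tested them. H2-Q7, H2-T10 and Cd1d1 lost the call under other settings and under both stricter thresholds, and H2-Eb1 and both B2m probes only under the methods' cut-offs, being under 1.5-fold. H2-M2 and Ciita were not tested where detection on all 8 arrays was required. Leaving the thresholds aside, of 604 pairs of a tested probe and an alternative 566 kept direction and side of the threshold, 20 gained a call, 18 lost one and none changed sign. The median difference of the tested member probes, 0.62, was 0.49 with the deposited normalized values, 0.49 without background correction, 0.54 with an offset of 50, 0.50 with median scaling, 0.76 with cyclic loess and 0.17 without a filter, where all 59 probes enter. Leaving out 1 array gave medians of 0.57 to 0.66, 20 to 23 probes higher and 1 to 2 lower. The count of probes lower in KO was 1 with cyclic loess, without a filter, with adjusted p under 0.01 (20 higher) and with the methods' cut-offs of 1.5-fold and unadjusted p under 0.005 (17 higher). The call of H2-T10 was lost without KO replicate 2, 3 or 4 or CON replicate 1, 2 or 3 (adjusted p 0.0679 to 0.105), that of H2-Q7 without KO replicate 2 or 4 or CON replicate 1 or 2 (adjusted p 0.0692 to 0.0813), and that of Cd1d1 without CON replicate 2 (adjusted p 0.0608). The brighter H2-T23 probe passed with the deposited values, without background correction, with an offset of 50, cyclic loess, detection on all 8 arrays, trend and robust variance and array weights (adjusted p 0.00703 to 0.0474), and without KO replicate 2 (0.0199) or CON replicate 1 (0.033), the dimmer Tapbp probe passed as lower without KO replicate 3 (0.0183), and Psmb8 passed as higher without CON replicate 4 (0.00272). Over all tested probes cyclic loess gave 3731 higher and 2850 lower, against 2878 and 4787 with quantile normalization, and moved the median difference to 0.02, and the cause was not tested. With the replicate number as a block, 22 member probes were higher and 2 lower with a median of 0.62. The block removed the call of Cd1d1 (adjusted p 0.0513) and added the brighter H2-T23 probe (adjusted p 0.0341), although the numbers do not pair the arrays. H2-M2, Ciita and Psmb8 lay near background in CON, and H2-K1 in both groups, which limits the precision of their differences.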
